A study of Mus musculus with 5 samples.

Results

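The genes described are 9 that mark or control blood stem and progenitor cells: the homeobox genes Hoxa5, Hoxa7, Hoxa9 and Meis1, the transcription factor genes Hlf, Mecom, Lmo2 and Lyl1, and the surface antigen gene Cd34. They were taken by symbol, matched to Ensembl identifiers of the GRCm38 build, from the 55487 genes of the count table, and all 9 were found. RNA was sequenced from sorted bone marrow common lymphoid progenitors (CLPs, lineage-negative cells positive for CD127 and Flt3), which give rise to B, T and natural killer cells. The 3 SF1 libraries came from mice that carry SclCre and JAK2-V617F, the kinase mutant common in myeloproliferative neoplasms, and the 2 WT libraries from wild-type mice. Marrow of both groups was harvested 16 weeks after tamoxifen. SclCre is driven by regulatory DNA of Scl, also called Tal1, a stem cell gene whose own RNA is given here. The labels state neither the age of the mice nor whether animals were pooled for a library. The p-values therefore measure the spread between these libraries, which may be technical.

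HOXA proteins bind DNA together with MEIS and PBX proteins, and the HOXA9 and MEIS1 pair maintains self-renewal in early blood cells and in many leukaemias. LMO2 does not bind DNA itself but bridges the basic helix-loop-helix factors TAL1 or LYL1 to GATA factors through LDB1, in a complex needed for blood stem cells. HLF and the MECOM protein EVI1 are transcription factors of long-term stem cells, and CD34 is a sialomucin of progenitor cells. Several of these genes are shut down as lymphocytes mature.

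The SF1 libraries held 9350767 to 11290082 counts, and WT replicates 1 and 2 held 20424296 and 8894288. Levels are given in CPM, counts scaled to a common library total with TMM factors. The floor given for a level of 0 is 3 counts, or 0.147 to 0.337 CPM by library total without TMM factors. A gene said to be at 0 had no count. Jak2 was at 68.1, 67.8 and 63.3 CPM in SF1 and 58.4 and 35.4 CPM in WT (log2 fold change 0.48, adjusted p = 0.104 by edgeR), and gene counts cannot show the point mutation. Of the sort markers, Flt3 was at 1594 to 1700 CPM in SF1 and 1514 and 1511 CPM in WT, and Il7r, which encodes CD127, was at 421 to 465 CPM in SF1 and 331 and 371 CPM in WT. Of 8 CLP markers, none at 0, 3 were higher (Il7r, Ly6d and Cd27) and Rag1 was lower, and their summed level of 11223 to 11953 CPM in SF1 and 10812 and 10543 CPM in WT was mostly Dntt and Ighm. Neutrophil and monocyte markers were higher in SF1 in 11 of 12 genes (summed levels 2234, 2754 and 5630 CPM in SF1 replicates 1, 2 and 3, against 981 and 1272 CPM in WT), with no marker at 0. Most of the WT sums was Mpo, the gene not called, at 774, 809 and 989.6 CPM in SF1 and 779 and 988 CPM in WT. The 11 others differed by 2.11-fold (Ctsg) to 27.1-fold (Lcn2), SF1 over WT. Of 11 erythroid markers, 9 could be tested and 7 were lower (summed levels 77.2 to 101 CPM in SF1, against 208 and 182 CPM in WT), with Hba-a2 at 0 in SF1. Most of each erythroid sum was Car2, at 71.3 to 93.3 CPM in SF1 and 133 and 131 CPM in WT. Macrophage markers were lower in 6 of 8 (6.13 to 12.1 CPM in SF1, against 25.5 and 32.1 CPM in WT), with Cd5l at 0 in SF1. Whether such cells take part in any value below was not tested. In bulk RNA, fewer cells of a type and less RNA per cell cannot be told apart.

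None of the 9 genes passed the test for a difference between SF1 and WT CLPs. All 9 were measured well enough to test, with at least 69 counts in every library. With the quasi-likelihood test of edgeR and p-values adjusted over 14423 genes, at a threshold of 0.05, 0 of 9 were called, and DESeq2 and limma voom also called 0. At an unadjusted p under 0.05 there were 4 of 9 (Lyl1, Cd34, Hoxa5 and Hoxa7), against 31.4% of all genes tested. Of all genes tested, 16.5% were called, 6.77% as higher and 9.74% as lower in SF1. In 4 of the 9 the SF1 libraries were all above the WT libraries, and in 1, Meis1, all below, where 24.8% and 24.2% of all genes tested were so placed. The log2 fold change was above 0 for 7 genes and below 0 for 2, with a median of 0.20, against 0.02 over all genes tested. For each of the 9 genes, the 95% interval of the fold change, not adjusted for the number of genes, lay within 2-fold in either direction.

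**Figure D1:**
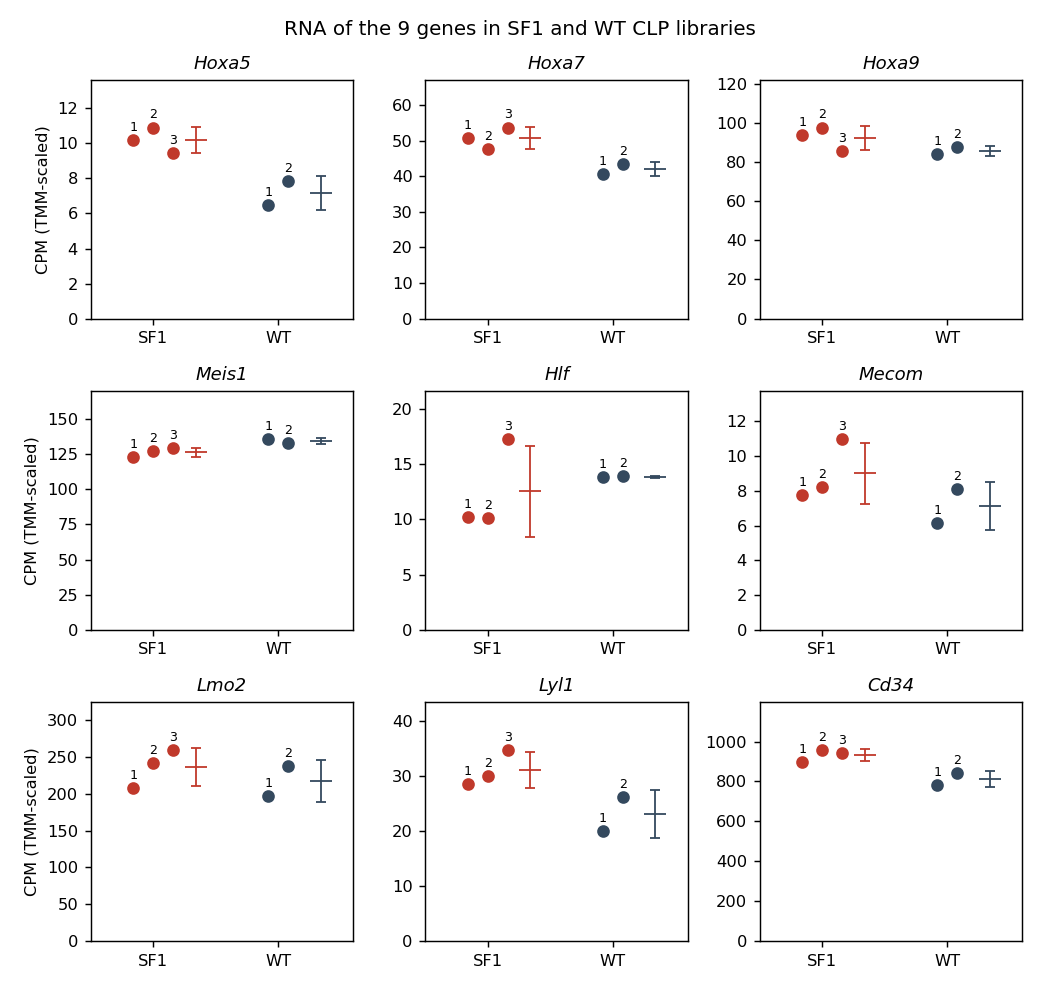
TMM-scaled CPM (vertical axes, from 0) of the 9 genes in the 3 SF1 libraries (red, left) and the 2 WT libraries (dark, right), with the replicate number above each point and the mean and SD beside each group. SF1 points lie above all WT points for Hoxa5, Hoxa7, Lyl1 and Cd34 and below them for Meis1, and Hlf is set apart by SF1 replicate 3 at 17.3 CPM.

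The 4 genes whose SF1 libraries all lay above WT are shown with the 250 bases before their RefSeq start (GRCm38.p6), so that the DNA next to each start can be read beside the values. The RefSeq table matched 8 of the 9 genes, all but Lmo2. The windows are chr6:52204588-52204837 (minus strand), chr6:52218574-52218823 (minus strand), chr8:84701207-84701456 (plus strand) and chr1:194938571-194938820 (plus strand), printed 5′ to 3′ with the start just after the last base. Capitals mark a match to any of 8 short motifs, searched on both strands: TTCNNNGAA for STAT factors, CANNTG for E-box binding factors, GATAA for erythroid and stem cell GATA factors, TGACAG for MEIS, TGATTNAT for PBX with HOX, CGGAAG for ETS factors, the TATA box TATAAA and the CAAT box sequence CCAAT.
Hoxa5: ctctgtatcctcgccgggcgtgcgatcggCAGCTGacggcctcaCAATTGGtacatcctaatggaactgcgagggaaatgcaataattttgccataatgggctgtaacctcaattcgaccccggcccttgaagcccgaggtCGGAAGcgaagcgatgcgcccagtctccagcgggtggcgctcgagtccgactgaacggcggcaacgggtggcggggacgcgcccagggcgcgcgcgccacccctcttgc
Hoxa7: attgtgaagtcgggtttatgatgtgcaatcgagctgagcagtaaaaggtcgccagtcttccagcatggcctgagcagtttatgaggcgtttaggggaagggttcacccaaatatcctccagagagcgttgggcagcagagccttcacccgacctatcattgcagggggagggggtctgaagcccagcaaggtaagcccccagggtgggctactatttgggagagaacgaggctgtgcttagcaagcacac
Lyl1: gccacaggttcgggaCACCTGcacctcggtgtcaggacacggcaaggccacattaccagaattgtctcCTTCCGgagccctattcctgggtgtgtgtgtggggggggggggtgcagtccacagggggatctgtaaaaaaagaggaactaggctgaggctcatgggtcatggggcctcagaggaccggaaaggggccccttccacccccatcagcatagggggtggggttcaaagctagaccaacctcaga
Cd34: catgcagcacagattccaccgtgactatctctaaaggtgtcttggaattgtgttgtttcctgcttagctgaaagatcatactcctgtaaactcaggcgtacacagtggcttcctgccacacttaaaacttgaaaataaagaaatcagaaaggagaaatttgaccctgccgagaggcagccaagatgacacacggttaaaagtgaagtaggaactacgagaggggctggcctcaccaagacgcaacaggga

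The Hoxa5 window held E-boxes from -221 to -216 and from -206 to -201, the second of them overlapping a CCAAT match on the other strand, and an ETS match from -109 to -104. It had 28 CpG dinucleotides, against 7 in Hoxa7, 5 in Lyl1 and 6 in Cd34. The Lyl1 window held an E-box from -235 to -230 and an ETS match from -182 to -177. None of the 8 motifs was found in the Hoxa7 and Cd34 windows. Over 32851 RefSeq windows of the same length, 66.2% held the E-box, 13.6% the ETS motif, 22.6% the GATA motif, 33.8% CCAAT, 12.4% TATAAA, 15.9% the MEIS motif, 2.82% the PBX-HOX motif and 7.02% the STAT motif. The STAT motif was in none of the windows of the 8 genes, which says only that these letters are not there.

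None of the 3 HOXA genes passed, and only Hoxa9 overlapped between the SF1 and WT libraries. Hoxa5, a homeobox factor of early blood progenitors (ENSMUSG00000038253, chromosome 6, 52201754 to 52204587), was at 10.2, 10.9 and 9.47 CPM in SF1 and 6.49 and 7.86 CPM in WT. The groups did not overlap, but the counts behind them were small, from 69 to 129 in a library. The log2 fold change was 0.52 (standard error, SE, 0.20, 95% interval 0.06 to 0.97, adjusted p = 0.116), and it was 0.30 after a correction for GC content and length.

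Hoxa7 (ENSMUSG00000038236, chromosome 6, 52214491 to 52221854), a gene of the same cluster, was at 50.7, 47.6 and 53.7 CPM in SF1 and 40.7 and 43.5 CPM in WT. All SF1 libraries were above both WT libraries, by a log2 fold change of 0.27 (SE 0.11, 95% interval 0.02 to 0.52, adjusted p = 0.126). Of its annotated exon bases, 20.4% are shared with the antisense RNA Hoxaas3, and a library preparation that does not mark strand cannot separate the reads there. Hoxaas3 itself was at 9.57, 10.1 and 8.82 CPM in SF1 and 4.78 and 7.97 CPM in WT (log2 fold change 0.61, adjusted p = 0.141). Hoxa9, a HOX gene tied to leukaemia (ENSMUSG00000038227, chromosome 6, 52223100 to 52231089), was at 94.0, 97.6 and 85.4 CPM in SF1 and 84.0 and 87.6 CPM in WT. These ranges overlapped, and the log2 fold change was 0.11 (SE 0.09, 95% interval -0.10 to 0.32, adjusted p = 0.474).

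The 3 genes made up most of the HOX counts in both groups. Of the 39 HOX genes in the table, 21 had no count in any library, and only 8 passed the filter on low counts. Hoxa5, Hoxa7 and Hoxa9 together held 89.7, 89.2 and 88.0% of all HOX counts in SF1, and 89.2 and 89.3% in WT. Hoxa9 alone held 50.6 to 55.8% in SF1, and 57.1 and 56.3% in WT. Per kilobase of exon, Hoxa7 was at 16.6 to 18.7 CPM in SF1 and 14.2 and 15.1 CPM in WT, and Hoxa9 was at 15.3 to 17.5 CPM in SF1 and 15.1 and 15.7 CPM in WT, so that these 2 genes did not differ in level beyond their spread. Hoxa5 was lower, at 5.04 to 5.79 CPM per kilobase in SF1 and 3.46 and 4.19 in WT.

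The genes beside them in the cluster were much lower, and none was called. Of the 8 other HOXA genes, 3 could be tested and 0 passed, and at an unadjusted p under 0.05 there was also none. Hoxa10 was at 8.19, 9.28 and 7.17 CPM in SF1 and 7.25 and 7.63 CPM in WT (log2 fold change 0.15, adjusted p = 0.681), and Hoxa3 was at 3.94, 5.61 and 5.79 CPM in SF1 and 4.48 and 4.44 CPM in WT (0.20, adjusted p = 0.656). Hoxa6, between Hoxa5 and Hoxa7, was at 1.28, 0.788 and 1.56 CPM in SF1 and 1.16 and 2.28 CPM in WT (-0.44, adjusted p = 0.583). Hoxa13 had no count in any library, and Hoxa11 had none in WT and a count in only 1 SF1 library. Of the noncoding genes of the cluster, Hoxaas3 and Hoxaas2 could be tested and neither passed (Hoxaas2 adjusted p = 0.697). Of 28 genes of the other HOX clusters, 20 had no count in any library, 2 could be tested with 0 called, and Hoxb4, a stem cell HOX gene, was at 1.01 to 1.49 CPM in SF1 and 1.21 and 0.797 CPM in WT (adjusted p = 0.791).

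**Figure D2:**
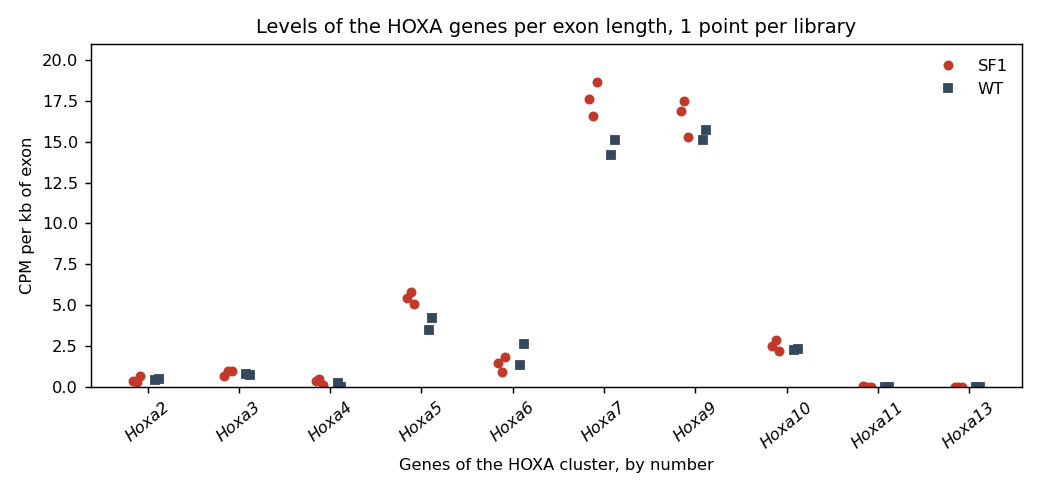
TMM-scaled CPM per kilobase of exon (vertical axis, from 0) of 10 HOXA genes in order of their number, with 1 point per library (red circles SF1, dark squares WT). Hoxa7 and Hoxa9 stand between 14.2 and 18.7, Hoxa5 between 3.46 and 5.79, and every other gene drawn below 3 in all libraries.

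Meis1, the DNA-binding partner of HOXA9 (ENSMUSG00000020160, chromosome 11, 18879817 to 19018985), was nearly even between the groups. It was at 123, 127 and 129 CPM in SF1 and 136 and 133 CPM in WT. Every SF1 library was below both WT libraries, by a log2 fold change of -0.10 (SE 0.08, 95% interval -0.27 to 0.08, adjusted p = 0.442). As a fold of SF1 over WT, the interval ran from 0.829 to 1.06. Of its exon bases, 9.8% are shared with Gm37818 on the same strand, and reads there cannot be told apart. Another 8.5% are shared with Gm16140 on the opposite strand, where a library preparation that does not mark strand cannot separate the reads.

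Among the partners of HOX and MEIS proteins, Pbx3 was called as higher in SF1, while Meis1 did not pass. Of 10 other genes of the TALE homeobox family, to which MEIS and PBX belong, 8 could be tested, with 2 higher, 0 lower and a median log2 fold change of 0.13. Pbx3, a HOXA9 cofactor in leukaemia, was at 4.57, 4.90 and 4.23 CPM in SF1 and 2.52 and 1.25 CPM in WT (1.20, SE 0.35, adjusted p = 0.0451). All SF1 libraries were above both WT libraries, but the call was close to the threshold and was lost without SF1 replicate 1, 2 or 3 or WT replicate 2 (adjusted p = 0.0761, 0.116, 0.087 and 0.176), after thinning (0.0672) and with the GC and length correction (0.0518). Pknox1, a TALE factor that also binds PBX, was at 86.8 to 99.2 CPM in SF1 and 111 and 101 CPM in WT (adjusted p = 0.296), and Tgif1, a TALE repressor, was at 122 to 127 CPM in SF1 and 106 and 119.7 CPM in WT (adjusted p = 0.296). Meis2 had no count in any library.

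The stem cell factors Hlf and Mecom were low in both groups and varied most among the SF1 libraries. Hlf, a PAR bZIP factor of stem cells (ENSMUSG00000003949, chromosome 11, 90336536 to 90390895), was at 10.2, 10.1 and 17.3 CPM in SF1 replicates 1, 2 and 3 and 13.8 and 13.9 CPM in WT. SF1 replicate 3 was above WT and the other SF1 libraries below it, and the log2 fold change, -0.14 (SE 0.25, adjusted p = 0.741), became -0.45 (adjusted p = 0.168) without SF1 replicate 3 and lay near 0 without SF1 replicate 1 (-0.01). Mecom, which encodes EVI1 (ENSMUSG00000027684, chromosome 3, 29951296 to 30548008), was at 7.77, 8.23 and 11 CPM in SF1 and 6.14 and 8.09 CPM in WT. Its groups overlapped as well, at 0.36 on the log2 scale (SE 0.24, adjusted p = 0.346), and the value was 0.19 without SF1 replicate 3 and 0.16 without WT replicate 1.

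SF1 replicate 3 was also the highest library for the sum of megakaryocyte markers, whose part in the Hlf and Mecom values was not tested. The same library was highest for the sums of neutrophil and monocyte, dendritic cell, mast cell and basophil, and endothelial markers. It was not for CLP, erythroid or macrophage markers. The summed level of the 8 megakaryocyte markers was 7.23, 9.37 and 17.7 CPM in SF1 and 7.04 and 6.15 CPM in WT. Of these markers, 4 could be tested and 1, Pf4, was called as higher. Pf4, a platelet chemokine, was at 1.70, 1.93 and 6.80 CPM in SF1 and 0.604 and 0.342 CPM in WT. Not every marker rose: Gp9 was at 1.91, 2.54 and 3.03 CPM in SF1 and 2.82 and 2.73 CPM in WT. Gp5, too low to test, was at 0.638, 0.525 and 0.0919 CPM in SF1 and 1.16 and 0.228 CPM in WT. Gp1bb was at 0 in all libraries and Treml1 at 0 in WT. In total, 6 of the 9 genes had their highest SF1 value in replicate 3. In the WT pair, 8 of the 9 were lower in replicate 1, the deepest library, than in replicate 2, with Meis1 as the exception. Neither share was counted over all genes tested, so neither can be called a trait of these 9.

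The relatives of Hlf moved in both directions. Of 7 genes related to Hlf or Mecom, 1 was higher, 2 were lower and 4 did not pass, with a median log2 fold change of -0.40. The other PAR bZIP genes, both under the circadian clock, fell: Dbp was at 16.7, 12.6 and 14.3 CPM in SF1 and 23.2 and 22.5 CPM in WT (log2 fold change -0.66, adjusted p = 0.0243), and Tef was at 49.7, 49.0 and 46.5 CPM in SF1 and 81.5 and 62.1 CPM in WT (-0.58, adjusted p = 0.0168). Nfil3, a repressor that binds the same DNA sites, rose, at 36.1, 41.7 and 55.0 CPM in SF1 and 27.9 and 28.9 CPM in WT (0.64, adjusted p = 0.0364). In all 3 genes the groups did not overlap, but without SF1 replicate 2 or 3 none of the 7 was called. The calls of Dbp and Nfil3 were also lost when either WT replicate was left out. That of Tef was lost without WT replicate 1, where its log2 fold change was -0.36. With the replicate number as a block, Dbp and Nfil3 did not pass (adjusted p = 0.0652 and 0.0896), and Nfil3 did not pass after thinning (adjusted p = 0.0536). Ctbp2, a corepressor bound by EVI1, was at 11.3 to 15.5 CPM in SF1 and 17.1 and 17.0 CPM in WT (-0.40, adjusted p = 0.167).

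Lmo2 and Lyl1 did not pass. Lmo2, the bridging protein of the complex (ENSMUSG00000032698, chromosome 2, 103957986 to 103981878), was at 208, 242 and 260.1 CPM in SF1 and 197 and 238 CPM in WT. The groups overlapped, and the log2 fold change was 0.12 (SE 0.12, 95% interval -0.14 to 0.39, adjusted p = 0.508), turning to -0.01 without WT replicate 1. Lyl1, a basic helix-loop-helix factor of stem and lymphoid progenitor cells (ENSMUSG00000034041, chromosome 8, 84701457 to 84704715), was at 28.4, 30.0 and 34.7 CPM in SF1 and 19.9 and 26.1 CPM in WT. Its SF1 libraries were all above WT, by a log2 fold change of 0.45 (SE 0.16, 95% interval 0.09 to 0.80, adjusted p = 0.0854). Without WT replicate 2 it passed (0.63, adjusted p = 0.0476), with the lone WT library assumed to vary like the others, and without WT replicate 1 it was 0.25 (adjusted p = 0.47).

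Among the genes of the complex around them, some differed in RNA and most did not pass. Of 18 genes of the LMO2 and SCL complex, 17 could be tested, with 3 higher, 2 lower, 12 not passing and a median log2 fold change of -0.01. Tal1, the usual partner of LMO2, was at 22.0, 16.2 and 19.9 CPM in SF1 and 11.8 and 13.2 CPM in WT (0.64 on the log2 scale, SE 0.18, adjusted p = 0.0422). SF1 lay above WT in every library, but the call was lost without SF1 replicate 1, SF1 replicate 3 or either WT replicate (adjusted p = 0.0997, 0.111, 0.231 and 0.0822), and after thinning to the smallest total (0.057). Tcf3, which encodes the E proteins that pair with TAL1 and LYL1, fell to 202, 175 and 200.1 CPM in SF1, against 478 and 435 CPM in WT (-1.25, SE 0.09, adjusted p = 0.000161), and Tcf4, another E protein gene, rose to 369, 386 and 420.1 CPM, against 273 and 301 CPM (0.45, adjusted p = 0.0096, but 0.0766 when WT replicate 1 was left out). Tcf4 is also in the list of dendritic cell markers, and the 7 others summed to 1385, 1565 and 1777 CPM in SF1 and 734 and 845 CPM in WT, with 4 of them higher and Cd209d at 0 in WT. The part of dendritic cells in the Tcf4 value was not tested.

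The single-stranded DNA binding proteins that stabilise LDB1 split: Ssbp2 was at 251, 269 and 281 CPM in SF1 and 164 and 204 CPM in WT (0.54, adjusted p = 0.0105, but 0.0733 when WT replicate 1 was left out), and Ssbp4 was at 55.0, 57.1 and 53.5 CPM in SF1 and 73.7 and 79.9 CPM in WT (-0.47, adjusted p = 0.0118, but 0.0545 when WT replicate 2 was left out and 0.0719 with the GC and length correction). Ldb1 itself was at 149, 136 and 149 CPM in SF1 and 148 and 142 CPM in WT (adjusted p = 0.974). Gata2, the stem cell GATA factor, was at 5.96, 6.39 and 6.89 CPM in SF1 and 7.30 and 9.11 CPM in WT (-0.34, adjusted p = 0.317). Without either WT replicate, 3 genes of the list were called.

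Cd34 (ENSMUSG00000016494, chromosome 1, 194938819 to 194961279) was the highest of the 9 genes and did not pass. It was at 897, 959 and 942 CPM in SF1 and 784 and 841 CPM in WT. The groups did not overlap, and the log2 fold change was 0.20 (SE 0.07, 95% interval 0.04 to 0.36, adjusted p = 0.0879), so that the interval stays below a gain of 1.28-fold. Of 6 genes of the CD34 family and its partners, 5 could be tested, with 2 higher and 0 lower, and 1 was called without SF1 replicate 2 or 3 or WT replicate 1. Selp, which encodes the P-selectin of platelets and endothelium, was at 3.19, 5.87 and 7.17 CPM in SF1 and 1.16 and 1.37 CPM in WT (2.12 on the log2 scale, SE 0.41, adjusted p = 0.0101, but 0.0833 when WT replicate 1 was left out), with the megakaryocyte markers given above. Of 8 endothelial markers, Pecam1, which many blood cells express, and Cdh5 were higher and none was at 0 in either group. The 8 summed to 277 to 287 CPM in SF1 and 256 and 233 CPM in WT, and the 7 without Pecam1 to 19.4 to 24.4 CPM in SF1 and 33.4 and 30.2 CPM in WT. Their part in the Selp value was not tested. Podxl2, a CD34 relative, was at 0.919 to 1.6 CPM in SF1 and 1.26 and 0.569 CPM in WT (adjusted p = 0.594), and Crkl, an adaptor that binds CD34, was at 136 to 150.0 CPM in SF1 and 155 and 154 CPM in WT (adjusted p = 0.321).

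Other genes of stem and multipotent cells went both ways. Of 24, 18 could be tested, with 2 higher, 3 lower, 13 not passing and a median log2 fold change of 0.01. Ly6a, which encodes Sca-1, was at 75.8, 75.8 and 77.6 CPM in SF1 and 33.7 and 40.3 CPM in WT (1.06, SE 0.11, adjusted p = 0.000772). Kit, the stem cell factor receptor, was at 212, 252 and 252 CPM in SF1 and 366 and 315 CPM in WT (-0.51, SE 0.10, adjusted p = 0.0116, but 0.0932 when WT replicate 1 was left out). Angpt1, a ligand of the stem cell receptor TIE2, was at 54.5, 46.7 and 52.1 CPM in SF1 and 102 and 95.8 CPM in WT (-0.96, SE 0.10, adjusted p = 0.000753). Esam, a stem cell and endothelial adhesion gene, was at 1.81, 1.40 and 1.47 CPM in SF1 and 0.403 and 0.342 CPM in WT (2.00, adjusted p = 0.0258), a call that did not hold without SF1 replicate 2 or 3 or either WT replicate (0.0506, 0.0574, 0.181 and 0.126) or by DESeq2 (0.0576). In these 4 genes the groups did not overlap. The Esam counts were 17, 16 and 16 in SF1 and 8 and 3 in WT, so that WT replicate 2 was at the floor of 3 counts. Without SF1 replicate 2 or 3 or WT replicate 1, 3 genes of the list were called.

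Some genes that keep HOX genes active or silent fell. Of 20 HOX gene regulators, 19 could be tested, with 0 higher, 6 lower, 13 not passing and a median log2 fold change of -0.22. In 2 of the 19 all SF1 libraries lay above WT and in 13 all lay below, against 24.8% and 24.2% of all genes tested. Men1, which encodes menin, a subunit that ties the methyltransferase KMT2A to HOX genes, averaged 93.9 ± 6.88 CPM in SF1 (SD, n = 3) and 181 ± 9.06 CPM in WT (SD, n = 2), with no overlap (-0.95, SE 0.09, adjusted p = 0.000496). Mllt1, which encodes the elongation factor subunit ENL, was at 72.7, 60.6 and 75.6 CPM in SF1 and 124 and 114 CPM in WT (-0.78, adjusted p = 0.00257). Cbx2, a Polycomb gene of the opposite, silencing side, was at 98.9, 85.5 and 80.4 CPM in SF1 and 161 and 139.7 CPM in WT (-0.77, adjusted p = 0.00257). Men1, Mllt1 and Cbx2 were called under all 14 alternatives. Rbbp5, a core subunit of KMT2 complexes, was at 83.7 to 90.7 CPM in SF1 and 112 and 121 CPM in WT (-0.41, adjusted p = 0.0141), a call that did not hold without SF1 replicate 3 or WT replicate 2 (0.0561 and 0.0669). Asxl1, a chromatin regulator gene, was at 90.6 to 105 CPM in SF1 and 84.6 and 68 CPM in WT (adjusted p = 0.0683) and was called as higher under 5 of the 14 alternatives (0.0477 without WT replicate 1). The remaining called genes were Hcfc1 and Dot1l, and 3 of the list were called without SF1 replicate 3. Kmt2a itself did not pass (log2 fold change 0.07), and this gene, Asxl1, Hcfc1 and Dot1l were named after their values were seen.

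Among 14 genes reported as targets of HOXA9 and MEIS1, 13 could be tested, with 2 higher, 1 lower, 10 not passing and a median log2 fold change of 0.12. In 7 of the 13 all SF1 libraries lay above WT, against 24.8% of all genes tested, and in 3 all lay below, against 24.2%. Id2, an inhibitor of E proteins, was at 29.4, 26.6 and 32.5 CPM in SF1 and 17.3 and 19.0 CPM in WT (0.71, SE 0.14, adjusted p = 0.0111, but 0.0881 when WT replicate 1 was left out). Bcl2, a survival gene, was at 294, 358 and 388 CPM in SF1 and 215 and 253 CPM in WT (0.57, SE 0.12, adjusted p = 0.0163), a call that did not hold without SF1 replicate 2 or 3 or WT replicate 1 (0.0656, 0.0555 and 0.12). Camk2d, a calcium-dependent kinase gene, was at 98.5, 111 and 103 CPM in SF1 and 136 and 134 CPM in WT (-0.37, adjusted p = 0.0185), lost without SF1 replicate 3 or either WT replicate (0.062, 0.0998 and 0.0512). Trib2, a pseudokinase gene, was at 0.957, 1.93 and 1.38 CPM in SF1 and 5.38 and 2.28 CPM in WT (adjusted p = 0.0543), and it passed without WT replicate 2 (0.0232). Without WT replicate 1 none of the list was called, 1 was without SF1 replicate 3, and 5 were without WT replicate 2. Over all companion lists, 26 of 91 different genes tested were called (28.6%, against 16.5% of all genes tested), 12 higher and 14 lower. The lists were chosen with earlier results of these data known, so these shares cannot be compared fairly. Of the companion genes, 15 were called without SF1 replicate 2 and 13 without SF1 replicate 3.

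**Figure D3:**
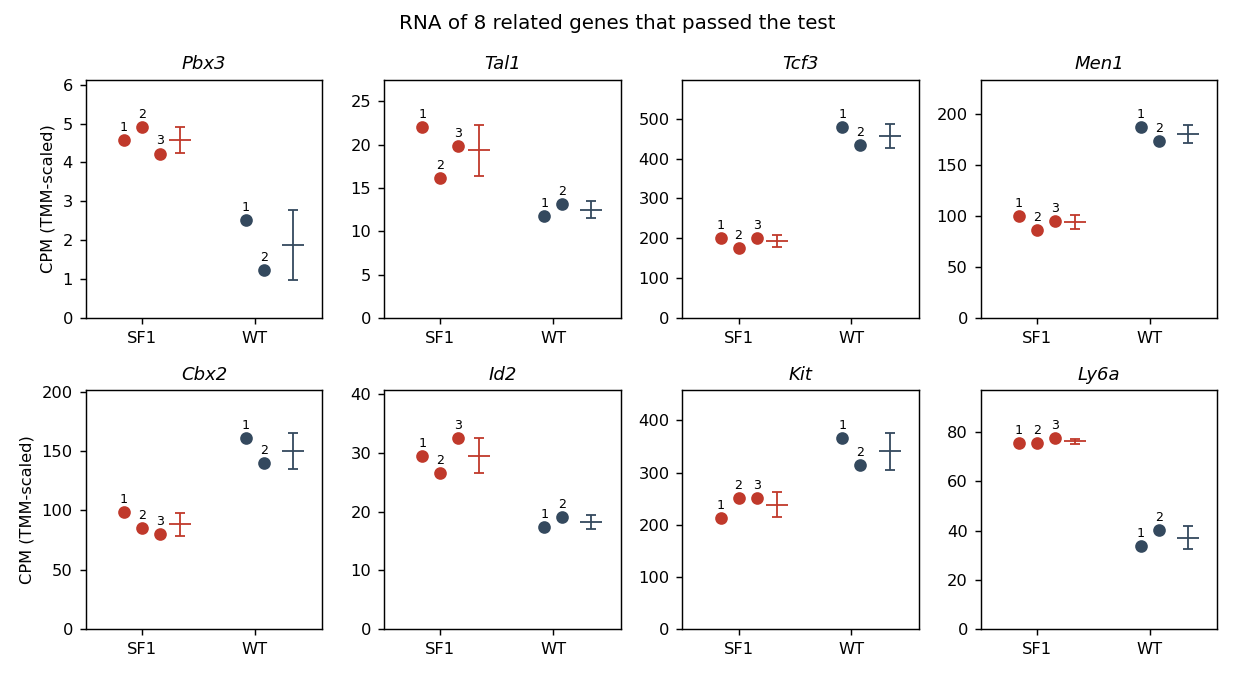
TMM-scaled CPM (vertical axes, from 0) of 8 related genes that passed the test, in the 3 SF1 libraries (red, left) and the 2 WT libraries (dark, right), with replicate numbers and with the mean and SD beside each group. Pbx3, Tal1, Id2 and Ly6a are higher in SF1 and Tcf3, Men1, Cbx2 and Kit lower, with no overlap between the groups.

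**Figure D4:**
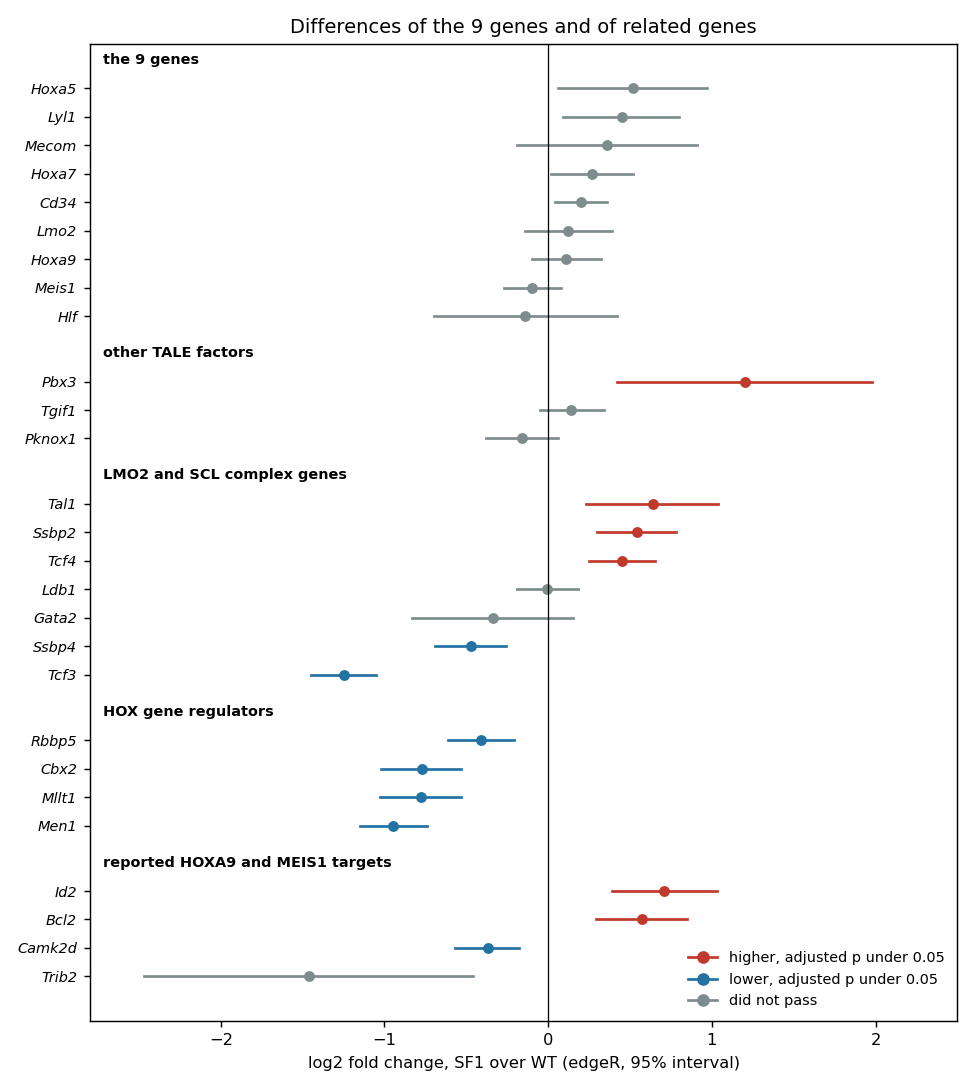
Log2 fold change of SF1 over WT (points) with its unadjusted 95% interval (lines) for the 9 genes and for the genes named from 4 related lists, red where higher and blue where lower at an adjusted p under 0.05, and grey where the test was not passed. All of the 9 genes are grey and lie between -0.14 and 0.52, and the genes of the other lists were drawn for their small p or as direct partners.

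Ordered by level per kilobase of exon, the 9 genes spanned from the top of the expressed genes to the bottom, in nearly the same order in every library. Cd34 was first in all 5 libraries, at 123 to 132 CPM per kilobase in SF1 and 108 and 115 in WT, a mean above that of 97.8% of the genes tested. Lmo2 came second in all, at 96.2 to 120.1 in SF1 and 91.1 and 110.0 in WT, and its range overlaps that of Cd34. Hoxa7, Hoxa9 and Lyl1 changed places between libraries within 11.1 to 19.3 CPM per kilobase and did not differ beyond their spread. Meis1, at 11.6 to 12.2 in SF1 and 13.0 and 12.6 in WT, came after them except in WT replicate 1, where Lyl1 was lower. Hoxa5 was seventh in every library, Hlf was eighth at 1.51 to 2.59 in SF1 and 2.06 and 2.08 in WT, and Mecom was last at 0.625 to 0.888 in SF1 and 0.494 and 0.651 in WT. The exon length counts the exons of all annotated transcripts, which lowers the value of genes with many.

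**Figure D5:**
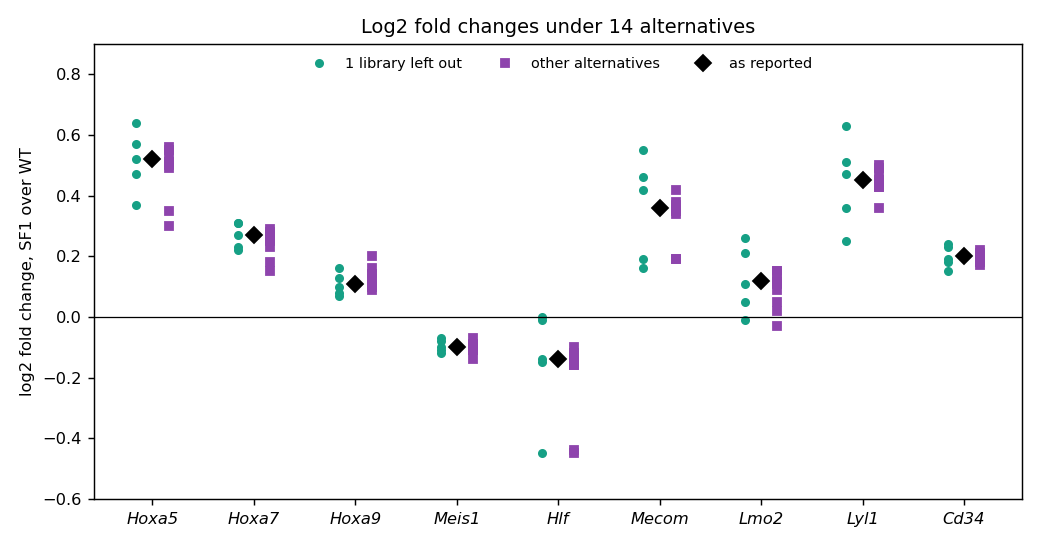
Log2 fold change of SF1 over WT (vertical axis) of the 9 genes as reported (black diamonds), with 1 library left out (green circles) and under the 9 other alternatives (purple squares). Hlf runs from -0.45 to near 0 and Mecom from 0.16 to 0.55, while Meis1 stays between -0.14 and -0.07.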

How the data were processed

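RNA of 3 SF1 and 2 WT libraries of sorted CLPs was measured by bulk sequencing with the SMART-Seq and Nextera XT chemistry, per the labels' protocols, without molecular identifiers, so counting intervals and floors cover counting error only. The authors deposited raw counts per gene. The submitters' processing notes name the build GRCm38 and the tools HISAT2 2.2.1, featureCounts 2.0.1 and FastQC, and the sources used here do not give the strand setting. Of 55487 identifiers, 55227 matched GENCODE M21, which gave symbols, exon lengths and coordinates.

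Counts were compared between SF1 and WT with edgeR 4.0.16 in R 4.3.3 (TMM scaling, filterByExpr with a minimum count of 10, quasi-likelihood F test, no covariate), with Benjamini-Hochberg adjustment over 14423 genes and a threshold of 0.05. Adjusted p-values come from this test where no other tool is given, and SEs follow from the F statistic. CPM are TMM-scaled, with 3 SF1 and 2 WT libraries throughout. Chi-square per degree of freedom of 6.89 to 9.55 within groups showed no repeated library. The tests were checked on simulated counts. The 14 alternatives include DESeq2 1.42.0 and limma 3.58.1 voom.

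The 9 genes, the lists and the tests were chosen with earlier results of these data known. Named are the 9 genes, from each list up to 4 genes of smallest p whose mean reached 1 CPM, and direct partners (Hoxa10, Hoxa3, Pbx3, Ldb1, Tal1, Gata2, Kit and Ly6a). Genes of like pattern were to be named for called members only, and none was called. Other genes were named after their values were seen. Some genes that the rule names are counted in their lists but not reported here.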

Additional observations from a re-analysis of the deposited data

How the results depend on the processing

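Under the 14 alternatives, none of the 9 genes was called in 13, and 1 (Lyl1) was called without WT replicate 2. With 1 library left out the count of called members was 0 to 1, that of all genes called 986 to 2170 and that of companion genes called 13 to 25, with the lowest counts without WT replicate 1 and, for companion genes, also without SF1 replicate 3. The groups share replicate numbers 1 and 2 only, and same-numbered libraries hardly deviated together (correlation 0.036 and 0.065). With 2 WT libraries the WT deviations mirror each other, so this check cannot decide whether the numbers pair libraries. With the replicate number as a block, 1519 genes and 16 companion genes were called, and none of the 9. Lmo2 turned to -0.03 on the log2 scale with the block and the GC and length correction together, and to -0.01 without WT replicate 1, and was highest, at 0.26, without WT replicate 2. With 1 library left out, Hoxa6 ran from -0.91 to 0.05 and Hoxb4 from -0.01 to 0.59, both turning without WT replicate 2. Ldb1 turned to 0.02 with a minimum mean of 5 CPM or without WT replicate 1, to 0.03 after thinning, to 0.04 without SF1 replicate 2 (lowest -0.04, without WT replicate 2), and to 0.21 with the GC and length correction, also with the block. All of these had an adjusted p of at least 0.101 there, and the cause was not tested. Over the 46 named genes, 550 of the log2 fold changes under alternatives kept direction and call, 71 lost the call, 4 gained one and 10 turned. Thinned to the smallest total, Hoxa5 was at 0.49 and Mecom at 0.35 on the log2 scale, the members with the fewest counts (from 69 and 71 per library).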
